A study of Homo sapiens with 4 samples.

Results

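The gene-dense distal ends of the long arms of chromosomes 8, 17 and 20 were examined for binding of SAF-A in mitotic and asynchronous cells. SAF-A (scaffold attachment factor A, the product of HNRNPU) was profiled by CUT&Tag, a method that brings a transposase to an antibody on chromatin and sequences the DNA cut out nearby. The cells were wild-type RPE1, a human line derived from the retinal pigment epithelium and immortalised, in 2 asynchronous libraries and 2 libraries of cells synchronised in mitosis. Both groups carry replicate numbers 3 and 4, and the labels name no drug or other way of synchronising the cells. Separate cultures are not named for the replicates, so the p-values below reflect only how far these samples spread, which may be technical. Members were all called peaks with a summit on chromosome 8 from position 142000001, chromosome 17 from 82000001 or chromosome 20 from 63000001 of the hs1 human assembly. The last 250 kb before the outermost peak end of each arm was left out. This gave blocks of 4.01 Mb (8q, 142000001 to 146009236), 2.03 Mb (17q, 82000001 to 84026525) and 2.96 Mb (20q, 63000001 to 65960103). They held 4480 of the 371322 nuclear peaks, of which asynchronous replicates 3 and 4 gave 1215 and 1007, and mitotic replicates 3 and 4 gave 906 and 1352. The reference for each block was the 20 Mb inward of it, with 11192 peaks over the 3 arms.

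SAF-A binds nuclear RNA and also DNA, and in interphase it is spread through the transcribed, open part of the nucleus. In mitosis it becomes phosphorylated and much of it is known to leave the chromosome arms. The distal ends of these long arms are among the most gene-dense and GC-rich bands of the human karyotype, and carry broadly expressed genes such as PLEC on 8q, which encodes the cytoskeletal linker plectin, and FASN on 17q, which encodes fatty acid synthase. No gene was assigned to any peak or region below.

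The members were chosen by position among called peaks, with earlier results of these data known, and the choice already named a lower share in mitotic libraries. The comparisons between the groups within the blocks are therefore descriptions, with no p-value. Limma was fitted over all windows or regions of the genome, and its counts of calls are given as background. A single value per library could not pass 0.05, since an exact two-sided permutation test of 2 and 2 libraries reaches 0.333 at best. The 4 libraries held 101124, 76460, 78900 and 114838 nuclear peaks (asynchronous replicates 3 and 4, then mitotic replicates 3 and 4). Their genome backgrounds, which stand for relative depth, were 1.38, 1.17, 1.17 and 1.79 fragments per position, so asynchronous replicate 4 and mitotic replicate 3 were of like depth and mitotic replicate 4 was the deepest. A share of covered length is the part of all peak-covered bases of a library that lies in a block. It cannot show a change common to the whole genome.

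SAF-A peaks were denser in all 3 blocks than inward of them, in every library, by 3.56 to 4.51 times on 8q, 2.41 to 2.78 times on 20q and 1.67 to 2.07 times on 17q. The 8q block had 145 (replicate 3) and 123 (replicate 4) peaks per Mb in asynchronous cells and, in the same order, 108 and 169 in mitotic cells. Inward of it there were 36.7 and 27.4 peaks per Mb, against 30.4 and 42.8 in mitotic cells. The 17q block had 123 and 106 against 88.8 and 132 peaks per Mb, and its inward stretch, itself rich in peaks, had 64.3 and 51.2 against 53.0 and 76.8. The 20q block had 130 and 101 against 98.3 and 137 peaks per Mb, and 46.9 and 36.2 against 37.0 and 56.8 inward. Over the whole genome the lists had 32.4, 24.5, 25.3 and 36.8 peaks per Mb. In each block the order of the libraries was that of their peak totals, except that mitotic replicate 3 ranked below asynchronous replicate 4 although its list was the longer of the pair. Peaks covered 5.65%, 4.48%, 3.93% and 7.21% of the sequence of the 8q block in that order of libraries.

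At the inner border, the 1 Mb window just outside each block held less than the window just inside on all 3 arms. On 8q the outer window had 1003 and 910 covered bp per covered Mb of the library in asynchronous and 1030 and 845 in mitotic cells. The window just inside had 1482 and 1785 against 1258 and 1590. On 17q the values just outside were 1009 and 960 against 912 and 996, and just inside 1425 and 1594 against 1336 and 1362. On 20q the outer window was nearly empty, at 39.6 and 26.8 against 45.3 and 26.8, and the inner one had 782 and 617 against 784 and 694. The excluded last 250 kb held 22 and 25 against 23 and 21 peaks on 8q, 31 and 31 against 23 and 34 on 17q, and 36 and 33 against 24 and 38 on 20q.

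The share of covered length in the blocks was lower in both mitotic libraries on 17q and 20q, and overlapped between the groups on 8q. The 17q block took 0.262% (replicate 3) and 0.300% (replicate 4) of covered length in asynchronous cells, against 0.240% and 0.236% in mitotic cells. The means were 0.281 ± 0.0269% and 0.238 ± 0.00287% (SD, n = 2), a log2 difference of -0.24. The 20q block took 0.427% and 0.416% against 0.392% and 0.380%, with means of 0.422 ± 0.00793% and 0.386 ± 0.00848% (SD, n = 2) and a log2 difference of -0.13. The 8q block took 0.632% and 0.694% against 0.551% and 0.644%, with means of 0.663 ± 0.0434% and 0.597 ± 0.0658% (SD, n = 2) and a log2 difference of -0.15. On 8q mitotic replicate 4 lay above asynchronous replicate 3, so the difference there is within the spread between replicates. Over the 3 blocks together the share was 1.32% and 1.41% in asynchronous and 1.18% and 1.26% in mitotic cells.

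**Figure D1:**
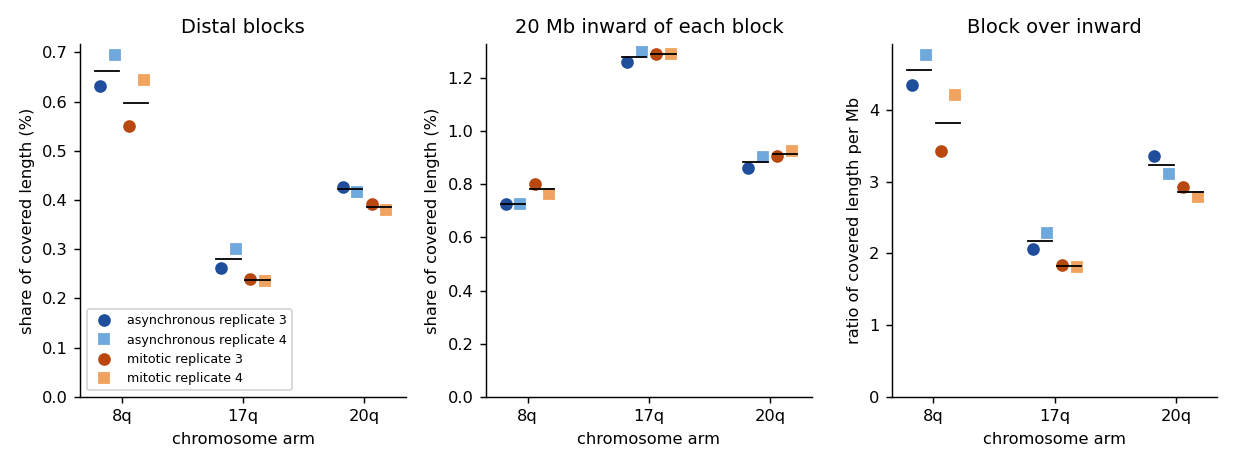
Share of a library's covered length (%) in each block, the same in the 20 Mb inward, and the ratio of covered length per Mb, by chromosome arm. Points are single libraries and black lines are means of 2. The mitotic points lie below the asynchronous ones on 17q and 20q in the left panel and on all 3 arms in the right panel.

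Single libraries carried much of the 8q and 17q differences. On 8q the log2 difference went from -0.15 to -0.04 without mitotic replicate 3 and to -0.09 without asynchronous replicate 4, and to -0.27 without mitotic replicate 4. On 17q it was -0.14 without asynchronous replicate 4. For the 3 blocks together it was between -0.21 and -0.11 with any 1 library left out, and on 20q between -0.15 and -0.10. Between asynchronous replicate 4 and mitotic replicate 3, the pair of like depth, every block was lower in the mitotic library. On 8q, however, these were the highest asynchronous and the lowest mitotic library. Asynchronous replicate 4 was the higher of its group on 17q as well. This pair cannot separate depth from the spread between replicates, and nothing is read from it. With only peaks of -log10 q of at least 5, the 8q groups no longer overlapped, at 0.675% and 0.663% against 0.567% and 0.613%. The log2 differences were then -0.18 on 8q, -0.39 on 17q and -0.37 on 20q. With blocks 1 Mb longer inward the 8q groups did not overlap either. They did overlap with lists of equal length, at 0.683% and 0.694% against 0.546% and 0.697%. The same held with peak number in place of covered length, a common smallest peak width, no trimming at the end, or the last 500 kb left out.

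The sizes of the falls on the 3 arms could not be told apart. The share of the 17q block over that of the 8q block was 0.415 and 0.433 in asynchronous and 0.436 and 0.367 in mitotic libraries. For 20q over 8q these ratios were 0.675 and 0.599 against 0.712 and 0.591, and for 17q over 20q they were 0.614 and 0.722 against 0.612 and 0.621. In all 3 ratios the mitotic values overlapped the asynchronous ones.

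Set against the 20 Mb inward, all 3 blocks were lower in both mitotic libraries. The groups overlapped on 17q with only peaks of -log10 q of at least 5 (2.33 and 3.15 against 2.44 and 2.03), and on 8q with 10 Mb inward as the reference (6.67 and 7.76 against 5.59 and 7.08) or with peak number in place of covered length (3.95 and 4.51 against 3.56 and 3.95). Covered length per Mb in the 8q block was 4.35 and 4.77 times that inward of it in asynchronous and 3.43 and 4.20 times in mitotic libraries, with means of 4.56 ± 0.295 and 3.82 ± 0.544 (SD, n = 2). The inward stretch of 8q itself took more of the covered length in mitotic libraries, at 0.800% and 0.764% against 0.725% and 0.726%. This stretch includes the surroundings of MYC and PVT1. Without the 3 Mb around them the log2 difference of the 8q ratio was -0.25, against -0.26 with them, and the ratios were 5.01 and 5.61 against 4.03 and 4.92. The 17q block stood at 2.06 and 2.28 against 1.84 and 1.81 times its inward stretch (means 2.17 ± 0.153 and 1.82 ± 0.0204; SD, n = 2). Its inward share overlapped between the groups, at 1.26% and 1.30% against 1.29% and 1.29%. The 20q block stood at 3.35 and 3.11 against 2.93 and 2.78 times (means 3.23 ± 0.169 and 2.85 ± 0.104; SD, n = 2), with an inward share of 0.862% and 0.904% against 0.905% and 0.924%. The 8q ratio rested on single libraries, with a log2 difference of -0.12 without mitotic replicate 3 and -0.41 without mitotic replicate 4.

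Most of the blocks' 1 Mb windows were among the densest of the genome. Of 2932 windows with a peak in at least 2 libraries, the 4 windows of 8q ranked 6, 7, 9 and 12 by mean covered length. The 2 of 17q ranked 20 and 72, and the 3 of 20q ranked 462, 4 and 10 from the inner to the outer. Of the 9 windows, 8 were lower in mitotic cells by their mean, and in 4 both mitotic libraries lay below both asynchronous ones, where the background over all windows was 15.3%. In none did both mitotic libraries lie above, against 20.7% of all windows. The blocks were chosen with this contrast in view, so nothing is read from these counts.

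Over the whole genome limma with Benjamini-Hochberg adjustment called 0 of the 2932 windows (0%), with 193 at an unadjusted p under 0.05, and nothing is read from this about the blocks. The outer window of 17q (83000001 to 84000000) had the most negative difference of the 9, with 1198 and 1401 covered bp per covered Mb in asynchronous and 1066 and 999 in mitotic libraries. Its log2 difference was -0.33 (SE 0.11). The middle window of 20q (64000001 to 65000000) was the densest of the 9, with 2094 and 1875 against 1676 and 1666. Its difference was -0.24 (SE 0.09). A pseudocount of 10 was added before taking logs, which understates differences of sparse windows. In both windows the groups did not overlap.

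The other windows of the blocks differed less or varied more between replicates. From 82000001 on 17q the values were 1425 and 1594 against 1336 and 1362 (log2 difference -0.16). On 8q the 4 windows from 142000001 outward had log2 differences of -0.20, -0.14, -0.20 and -0.08. Their groups overlapped except in the third, from 144000001, with 1524 and 1889 against 1453 and 1501. From 63000001 on 20q, the sparsest of the 9, mitotic cells had the higher mean (log2 difference 0.08, overlapping), and from 65000001 the difference was -0.11, overlapping.

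Windows of high coverage tended to be lower in mitotic cells across the genome. Among the densest 10% of windows outside the blocks, 183 of 285 were lower in mitotic cells and the median log2 difference was -0.04. In 69 of those 285, or 24.2%, both mitotic libraries lay below both asynchronous ones. Over all windows the median was 0.02, and over the 9 block windows it was -0.16. These medians are not of windows of like density. The densest 10% ran down to rank 293, while 8 of the 9 block windows ranked between 4 and 72. Windows as dense as those 8 were not compared separately. The middle 90% of the densest windows outside the blocks ran from -0.22 to 0.15, and 7 of the 9 block windows lay inside that range. The outer window of 17q and the middle window of 20q lay below it.

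**Figure D2:**
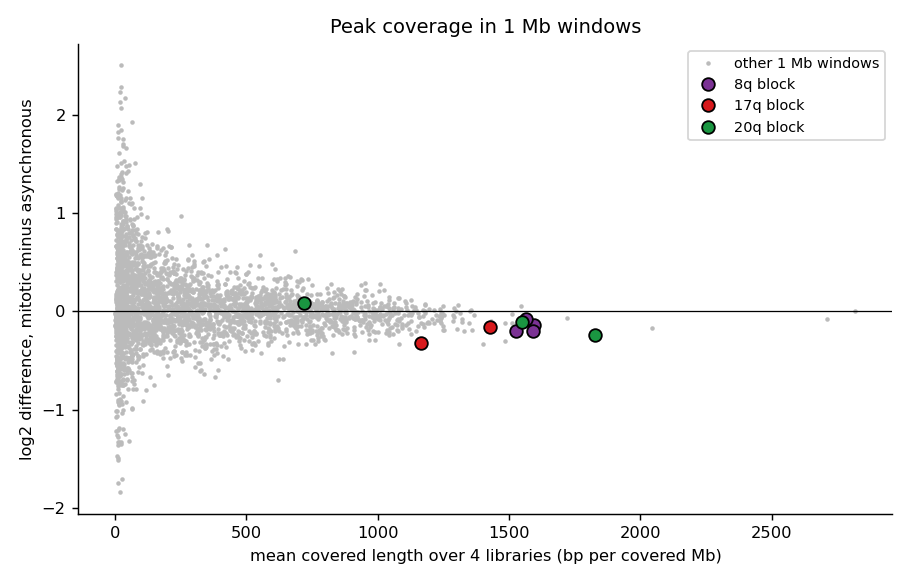
Log2 difference of covered length (mitotic minus asynchronous, with a pseudocount of 10) against mean covered length over the 4 libraries (bp per covered Mb) for 2932 windows of 1 Mb. Grey points are windows outside the blocks. Of the 9 coloured block windows, 8 lie below 0, at the dense end of the cloud except for 1 of 20q.

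At a finer scale the differences varied along the blocks, and whether by more than the spread between replicates was not tested. Of 36 windows of 250 kb in the blocks, 28 were lower in mitotic cells, against 47.7% of all 9603 such windows. In 14 both mitotic libraries lay below both asynchronous ones, where the background was 15.9%, and in 2 both lay above, where it was 18.6%. As with the 1 Mb windows, nothing is read from these counts, since the blocks were chosen with this contrast in view. Limma called 0 of the 9603. Counted in steps of 250 kb from the outermost peak end, all 8 steps of 17q were lower in mitotic cells. The most negative step of 17q lay 1.0 to 1.25 Mb from the end, with 432 and 545 covered bp per covered Mb against 323 and 363. Its densest step, 2.0 to 2.25 Mb from the end, had nearly equal values of 435 and 420 against 408 and 428.

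On 20q the densest step was also the one with the most negative difference. It lay 1.5 to 1.75 Mb from the end and had 600 and 440 against 391 and 409 covered bp per covered Mb. In 4 of the 11 steps of 20q both mitotic libraries were below, and in 2 both were above. The step 2.25 to 2.5 Mb from the end had 279 and 229 against 363 and 281. On 8q, 12 of 16 steps were lower in mitotic cells. The most negative lay 0.75 to 1.0 Mb from the end, with 372 and 372 against 246 and 300, and the step 3.0 to 3.25 Mb from the end was higher, with 251 and 263 against 261 and 378.

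**Figure D3:**
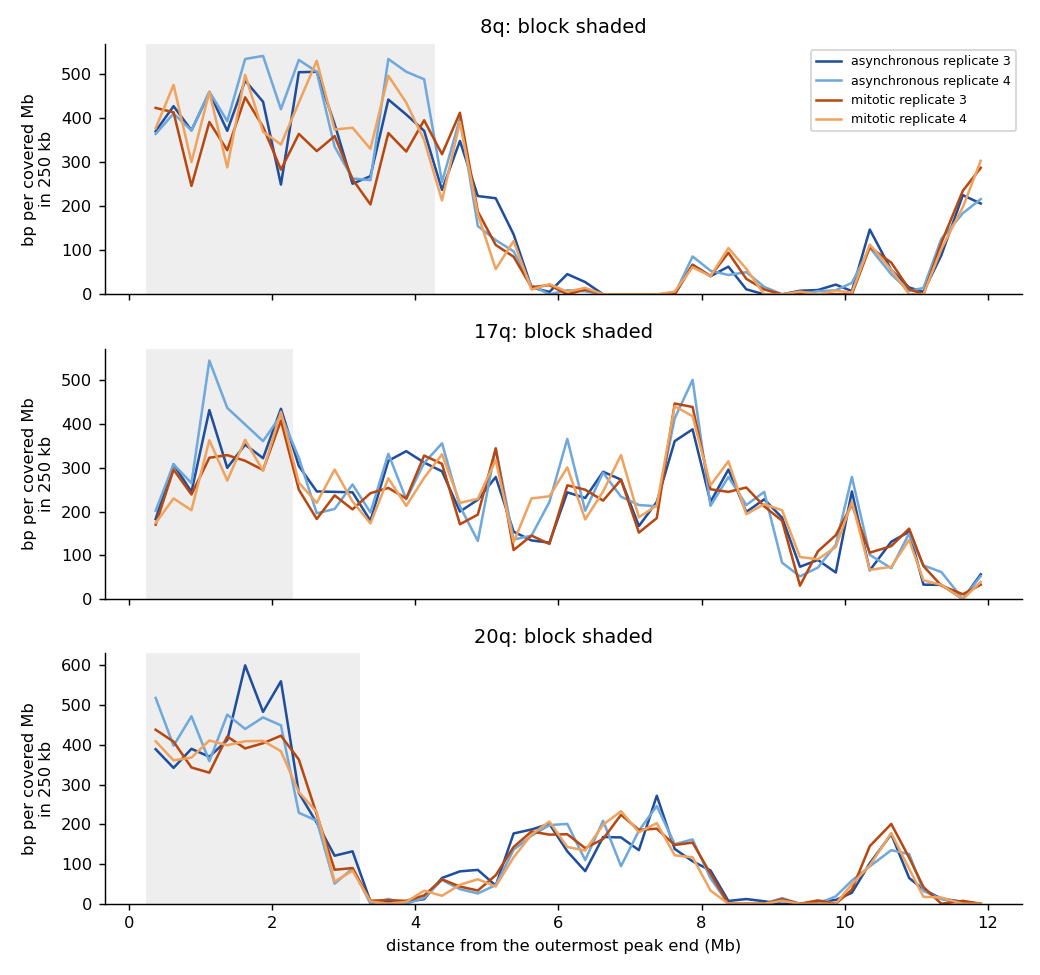
Covered length in steps of 250 kb (bp per covered Mb of the library) against distance from the outermost peak end (Mb), with 1 line per library and the blocks shaded. On 20q coverage already falls within the inner part of the block, from 2.25 Mb from the end, and is nearly absent just inward of it. On 8q it falls beyond 4.75 Mb from the end, somewhat inward of the block. It stays high just inward of the 17q block. On 20q the asynchronous lines stand above the mitotic ones between 1.5 and 2.25 Mb from the end.

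Lower mitotic shares were found at most chromosome ends. The 3 Mb inside the last 250 kb were compared at all 46 ends of chromosomes 1 to 22 and X. By mean share the 8q end ranked 1, the 20q end ranked 3 and the 17q end ranked 6. Both mitotic shares lay below both asynchronous ones at 15 ends (32.6%), 17q and 20q among them. Of the 43 other ends, 30 were lower in mitotic cells by their mean, with a median log2 difference of -0.05. Ordered from the most negative difference, 17q stood at place 8 (-0.20), 8q at 12 (-0.14) and 20q at 13 (-0.13). Among the 21 other ends with a mean share of at least 0.2%, 19 were lower, and the differences ran from -0.24 to 0.04. The values of 8q, 17q and 20q lay within that range.

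**Figure D4:**
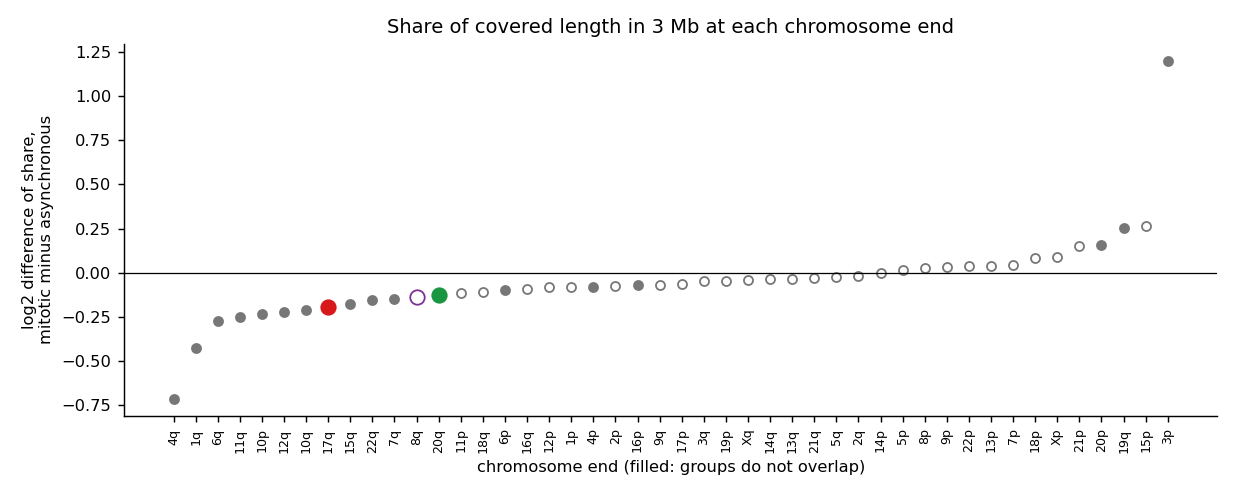
Log2 difference (mitotic minus asynchronous) of the share of covered length in 3 Mb at each of 46 chromosome ends, ordered by value. Filled points are ends where the groups do not overlap. The 17q (red), 8q (purple, overlapping) and 20q (green) ends stand at places 8, 12 and 13.

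On 17q and 20q the lower share was more a matter of peak number than of peak width. On 8q the differences in number and width were closer in size, and both measures overlapped between the groups. By peak number, the 17q block held 0.246% and 0.281% of nuclear peaks in asynchronous and 0.228% and 0.233% in mitotic libraries, a log2 difference of -0.19. For 20q the values were 0.381% and 0.390% against 0.369% and 0.354% (-0.09), and for 8q 0.575% and 0.646% against 0.551% and 0.590% (-0.09, overlapping). Mean peak width over that of the whole list was 1.07 and 1.07 against 1.05 and 1.01 on 17q (-0.05). It was 1.12 and 1.07 against 1.06 and 1.08 on 20q (-0.03) and 1.10 and 1.07 against 0.999 and 1.09 on 8q (-0.06), where the groups overlapped.

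Peaks of the blocks were recurrent more often than peaks elsewhere. Peaks of the 4 lists merged into 2469 regions in the blocks. Of these 12% were called in all 4 libraries, with 12.2% on 8q, 11.5% on 17q and 12.1% on 20q, against 8.38% of the 242505 nuclear regions. Inward of the blocks the shares were 8.0%, 7.61% and 6.53%. Regions called in 1 library made up 58.2% in the blocks and 71.8% over all chromosomes. Denser peaks overlap by position more often, and the part this plays was not tested.

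The share was also split by the number of libraries that called a region. As a share of all covered length, regions called in all 4 libraries overlapped between the groups on each arm, with 0.230% and 0.293% against 0.245% and 0.206% on 8q, 0.0906% and 0.109% against 0.106% and 0.0792% on 17q, and 0.166% and 0.188% against 0.180% and 0.128% on 20q. The next values are instead shares of the covered length of regions with the same recurrence. Of the covered length of regions called in all 4 libraries, the 17q block held 0.286% and 0.283% in asynchronous and 0.285% and 0.270% in mitotic libraries, which overlapped. Of the covered length of regions called in 1 library it held 0.169% and 0.210% against 0.125% and 0.158%. The part of 20q in the regions in all 4 libraries was 0.523% and 0.487% against 0.484% and 0.435%, and of those in 1 library 0.284% and 0.252% against 0.265% and 0.278%, which overlapped. The 8q block held 0.727% and 0.761% against 0.660% and 0.703% of the former and 0.393% and 0.437% against 0.314% and 0.460% of the latter. Regions called in 3 libraries were lower in both mitotic libraries in all 3 blocks, with log2 differences of -0.23 on 8q, -0.39 on 17q and -0.28 on 20q. Such classes depend on the calls in the same 4 libraries.

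Peaks of the blocks rose from a higher local background than most peaks. The authors' peak caller sets each peak against a local background, which was recovered here from its fold and p-value. Its median over peaks of the 8q block was 4.19 and 4.09 times the genome background in asynchronous and 3.93 and 3.99 times in mitotic libraries. On 17q it was 3.56 and 3.89 against 3.18 and 3.29 times, and on 20q 4.36 and 4.55 against 4.01 and 4.30 times. All 3 blocks were thus lower in both mitotic libraries, with log2 differences of -0.06, -0.20 and -0.10. Over all nuclear peaks the medians were 1.63 and 1.78 against 1.64 and 1.65. Summits in the blocks were also higher, which is no separate trait, since on a higher local background a peak needs a higher summit to be called. Their medians were 16 to 24 fragments against 11 to 14 over whole lists, while the median fold was 3.02 to 3.58 against 3.63 to 3.95.

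Divided by the median over all peaks, the local background was lower without overlap on 17q and overlapped on the other arms. These ratios were 2.19 and 2.18 against 1.94 and 2.0 on 17q, 2.57 and 2.29 against 2.39 and 2.42 on 8q, and 2.67 and 2.55 against 2.44 and 2.61 on 20q. By 1 Mb window, the local background was below in both mitotic libraries in 5 of the 9 block windows, where the background over 2693 windows with peaks in all 4 libraries was 24.6%. Among the densest 10% of windows outside the blocks this was so in 112 of 285, so the trait is not particular to the blocks. Inward of the 17q block the local background was also lower, at 2.11 and 2.17 against 1.94 and 1.94. Inward of 8q it was 1.58 and 1.64 against 1.68 and 1.65. Divided by the inward median instead, the block median was lower without overlap only on 8q. The ratios there were 2.66 and 2.49 against 2.35 and 2.42. On 17q and 20q these ratios overlapped between the groups, with log2 differences of -0.06 and -0.07. Which arm stood apart thus depended on the reference. The part of the local background in the covered length was not tested.

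Summit heights at regions called in all 4 libraries leaned lower in mitotic cells on 20q more than on 8q or 17q, and the arms were not tested against each other. Heights were fragments at the summit divided by the library's median over the 20334 such regions, of which 146 lay in the 8q, 58 in the 17q and 93 in the 20q block. These are only regions that passed the caller in every library. On 20q, 67 of 93 regions (72.0%) had a lower mean in mitotic cells, with a median log2 difference of -0.12. On 8q it was 84 of 146 (57.5%) with a median of -0.05, and on 17q 29 of 58 with a median of -0.005. Over all 20334 regions 52.5% were lower, with a median of -0.02. Inward of the blocks 44.5% were lower on 8q, 59.2% on 17q and 47.2% on 20q. By library, the median height on 20q was 1.28 and 1.33 in asynchronous and 1.25 and 1.12 in mitotic cells. Mitotic replicate 3 was thus close to asynchronous replicate 3, and mitotic replicate 4, the deepest library, was the lowest. Regions of 1 library are not replicates, and their counts are descriptions. Both mitotic summits lay below both asynchronous ones in 33 regions of 20q, 41 of 8q and 12 of 17q, which is 35.5%, 28.1% and 20.7%, where the background was 20.5%. Both lay above in 8, 25 and 8 regions, where the background was 17.2%.

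**Figure D5:**
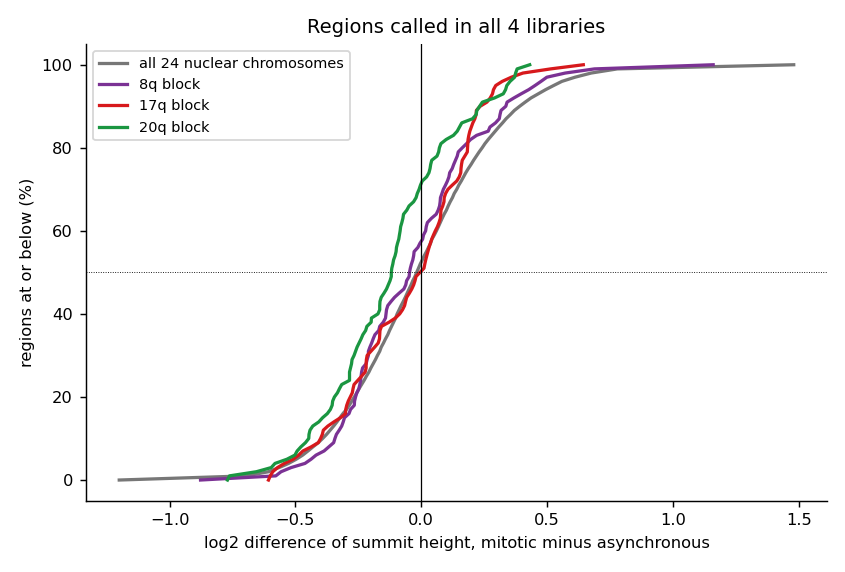
Cumulative share of regions (%) against the log2 difference of summit height (mitotic minus asynchronous) for regions called in all 4 libraries. The 20q curve (green) is shifted to lower values, with a median of -0.12, and the 17q curve (red) crosses 50% near 0, like the 20334 regions of all nuclear chromosomes (grey).

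Limma with Benjamini-Hochberg adjustment called 1 of the 297 block regions, where 12 of 20334 (0.0590%) were called in all, and nothing is read from this count about the blocks. Over all regions limma called 6 when asynchronous replicate 3 was left out, 5 when asynchronous replicate 4 was, and 1 when mitotic replicate 3 was. The called region lay on chromosome 8 from 144656976 to 144658073, 1.60 Mb from the end, and was higher in mitotic cells, against the direction of the block. Its summits held 52 (replicate 3) and 25 (replicate 4) fragments in asynchronous cells, against 71 and 115 in mitotic cells. Relative to the library medians these were 2.08 and 1.19 against 3.55 and 3.48, a log2 difference of 1.16 (SE 0.21). The call was lost with scaling to the genome background, with a prior without a trend, without asynchronous replicate 4 (log2 difference 0.76) and without mitotic replicate 3, while the direction held in each of these.

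The highest summits of the 8q block were among the highest shared regions of the genome. The region from 144365478 to 144366437 ranked 40 of 20334, with 310 and 264 fragments in asynchronous and 185 and 352 in mitotic libraries. Relative to the library medians it stood at 12.5 ± 0.121 and 9.96 ± 1.00 (SD, n = 2), and both mitotic values were the lower ones (log2 difference -0.33, SE 0.14). The region from 143010326 to 143011513 had 215 and 228 against 144 and 308 fragments, which is 8.60 and 10.9 against 7.20 and 9.33 times the medians, and overlapped. From 145940979 to 145942035, 0.318 Mb from the end, the values were 132 and 110 against 121 and 184 fragments, and relative to the medians both mitotic values were the higher (5.28 and 5.24 against 6.05 and 5.58). From 143820484 to 143821203 there were 117 and 103 against 84 and 150 fragments, or 4.68 and 4.90 against 4.20 and 4.55 times the medians. After the called region, the next that limma ranked on 8q was at 143869564 to 143870915, with 37 and 47 against 18 and 36 fragments (log2 difference -0.88, SE 0.25).

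On 20q the highest summits leaned to lower values in mitotic cells. The region from 64029125 to 64029636 had 129 and 98 fragments in asynchronous and 77 and 144 in mitotic libraries, or 5.16 and 4.67 against 3.85 and 4.36 times the medians. From 64538908 to 64539688 there were 104 and 79 against 57 and 109 fragments (4.16 and 3.76 against 2.85 and 3.30 times), and from 64115947 to 64116986 there were 94 and 90 against 64 and 95 (3.76 and 4.29 against 3.20 and 2.88 times). In these 3 the groups did not overlap, with log2 differences of -0.26, -0.37 and -0.40. In the fourth, from 65761565 to 65762228, they did, with 79 and 89 against 65 and 121 fragments. The 2 regions of 20q that limma ranked highest were picked by this contrast, so nothing is read from their direction, and limma called neither. The first, from 64937529 to 64937995, had 33 and 31 against 17 and 26 fragments (log2 difference -0.77, SE 0.27). The second, from 64356020 to 64356477, had 75 and 50 against 32 and 66 (-0.58, SE 0.21).

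The 17q block had lower top summits, which showed no common direction. Its highest, from 82131333 to 82132630, ranked 1286 among shared regions, with 57 and 62 against 51 and 78 fragments, and the groups overlapped (2.28 and 2.95 against 2.55 and 2.36 times the medians). From 82889972 to 82890436 there were 68 and 33 against 47 and 68 fragments, and from 83327104 to 83327866 there were 48 and 43 against 38 and 75, both overlapping relative to the medians. Only in the fourth, from 83092629 to 83093698, were both mitotic values lower, with 60 and 43 against 34 and 63 fragments (2.40 and 2.05 against 1.70 and 1.91 times; log2 difference -0.30). The 2 that limma ranked highest were at 83156853 to 83157752, higher in mitotic cells with 23 and 11 against 21 and 37 fragments (0.64, SE 0.29), and at 82870648 to 82871332, with 39 and 28 against 14 and 45 (-0.56, SE 0.26).

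Some regions were called in each library of 1 group and in none of the other. The blocks held 61 asynchronous-only and 76 mitotic-only regions, which was 2.47% and 3.08% of block regions, against 1.66% and 2.80% of all regions. There were thus 1.25 mitotic-only regions for each asynchronous-only one in the blocks, against 1.69 over all chromosomes and 2.23, 2.0 and 1.67 inward of 8q, 17q and 20q. By block the counts were 31 and 41 on 8q, 11 and 14 on 17q and 19 and 21 on 20q. With lists of equal length the blocks held 65 and 61 and all chromosomes 3793 and 5185, or 0.938 against 1.37 mitotic-only regions for each asynchronous-only one. At -log10 q of at least 5 the blocks held 12 and 24 and all chromosomes 518 and 2173, or 2.0 against 4.19. The ratio in the blocks was below that of all chromosomes at each of these 3 settings, and the difference was not tested.

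The strongest asynchronous-only region of 8q, from 145110780 to 145111141, had 38 and 35 fragments, and the strongest mitotic-only one, from 142155537 to 142155841, had 32 and 76. On 20q these were 64627468 to 64627888 with 40 and 29 fragments and 64203820 to 64204194 with 29 and 37. On 17q they were 82624406 to 82625035 with 20 and 22 and 82674003 to 82674642 with 22 and 32. All 6 were at or above the 80.2 percentile of summit pileups in both of their lists, and those of 17q were the lowest.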

How the data were processed

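SAF-A CUT&Tag was done in 4 RPE1 libraries, with 100000 cells and 1 pg of E. coli DNA for calibration, per the labels' protocols. The submitters' processing notes name the build hs1 and the tools MACS2, Bowtie2, fastp and bedtools. Their versions and settings, any control, and the treatment of duplicates and spike-in were not given in the sources used here. The authors deposited 1 peak list per library. The fold column, as the authors deposited it, is a ratio at the summit over local background. The -log10 columns for p and q, also deposited, come from the peak caller and were used only within a list. The deposited score was not used. Start, end and summit are the authors' positions, printed counting from 1.

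Members and alternatives were chosen with earlier results of these data known. A peak was placed by its summit. Summit pileup and local background were recovered from fold = (pileup + 1) / (background + 1) and p as a Poisson upper tail. Pileups under 200 came out whole within 0.05 in 100% of peaks. The smallest background of a list was its genome background. Peaks sharing at least 1 bp were merged. Limma 3.58.1 (R 4.3.3, trended prior) was fitted over all windows of 1 Mb with a peak in at least 2 libraries, on log2 of covered bp per covered Mb plus 10. It was also fitted over all regions called in all 4 libraries, on log2 summit pileup. Both used Benjamini-Hochberg adjustment with a threshold of 0.05. The fit over windows and the recovery of pileups were tested on simulated data, and the fit over regions was not. Python 3.11.15 was used otherwise. Named regions were, in each block, the 4 with the highest mean rank of summit pileup, the 2 with the smallest p and the strongest region of each group alone. The chromosome ends, 250 kb steps, local backgrounds and recurrence classes were chosen after seeing the data. Gene starts were not analysed and no sequence is printed, since the gene annotation and sequences used here are of another build. Depth is known only through the genome background, from 1.17 to 1.79 fragments per position, since library totals were not used.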

Additional observations from a re-analysis of the deposited data

How the results depend on the processing

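The direction of the share and of the ratio to the inward stretch was lower in mitotic cells in all 3 blocks under every alternative run. The groups of the ratio overlapped in the 3 cases given above, and those of the 8q share in most alternatives. With -log10 q of at least 5 the log2 differences of the share moved to -0.39 on 17q, -0.37 on 20q and -0.29 over all 3 blocks, and the ratio of 20q to its inward stretch moved to -0.57. With summits counted in place of covered bases the 20q share moved to -0.09. With any 1 library left out the share ranged from -0.27 to -0.04 on 8q, -0.33 to -0.14 on 17q, -0.15 to -0.10 on 20q and -0.21 to -0.11 for the 3 together, and the ratio from -0.41 to -0.12, -0.32 to -0.18 and -0.23 to -0.12. Over all windows 2 passed with the replicate block and 1 without scaling, and 0 with any 1 library left out. Without scaling, 6 block windows turned positive: 0.08 from 82 Mb on 17q, 0.13 from 65 Mb on 20q, and 0.03, 0.09, 0.04 and 0.16 in the 4 windows of 8q from the inner to the outer. Unscaled values follow the length of the lists. With 1 library left out, the 20q window from 63 Mb ranged from -0.08 (without asynchronous replicate 4; -0.0019 without mitotic replicate 3) to 0.25. The one from 65 Mb ranged from -0.22 to 0.01 (without asynchronous replicate 4), and the second of 8q from -0.33 to 0.05 (without mitotic replicate 3). Shared regions passed in 0 cases with scaling to the genome background and 0 with a prior without a trend, and in 31 with peaks of at least 183 bp, against 12. With 1 library left out 1 to 12 passed, 0 or 1 of them in the blocks. In the blocks 0 passed with either of the first pair of settings. The region on chromosome 8 at 144656976 lost its call as given above. Named regions that turned direction did so with 1 library left out. Without asynchronous replicate 4 these were 82131333 (0.11, lowest -0.27), 82889972 (-0.31, highest 0.49) and 65761565 (0.13, lowest -0.30). Without mitotic replicate 3 they were 82889972 (-0.0048) and 65761565 (0.0028), and without mitotic replicate 4 it was 83327104 (-0.06, highest 0.20). At -log10 q of at least 5, regions of one group alone numbered 12 asynchronous and 24 mitotic, against 61 and 76. Same-numbered libraries did not deviate together (correlation 0.00016 over windows and -0.05 over shared regions), so the numbers were not taken as pairs. With the replicate block 14 shared regions passed, 1 of them in the blocks. The comparison of gene starts was not run. Depth is known only through the genome background, which ranged from 1.17 to 1.79 fragments.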
